A study of Mus musculus with 18 samples.

Results

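The integrated stress response and the unfolded protein response are described here through 10 genes in mouse liver: Atf4, Atf3, Ddit3, Trib3, Chac1, Sesn2, Eif4ebp3, Asns, Hspa5 and Xbp1. They were chosen by symbol, and all 10 were found among the 19057 symbols of the expression table and passed the filter on low values, as did 10822 symbols in all. Each value is an RPKM, a read count divided by transcript length and by the depth of the library. The 18 liver libraries came from 10-week-old ICR mice, an outbred strain, with 3 mice in each of 6 groups. Con mice were the controls and AOS mice received alginate oligosaccharide at 10 mg/kg. STZ mice received streptozotocin, a toxin of the pancreatic beta cell, as a model of type 1 diabetes. STZ+AOS mice received both agents. A10-FMT and Con-FMT mice received streptozotocin and then microbiota taken from donors given AOS at 10 mg/kg or from control donors. Luminal content of the small intestine was pooled within each donor group before transfer, so that the recipients of a group shared 1 inoculum.

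In the integrated stress response, kinases that sense amino acid shortage, heme shortage, viral RNA or misfolded protein phosphorylate the translation factor eIF2, which lowers general protein synthesis and favours translation of the ATF4 message. ATF4 then drives genes for amino acid supply and, with CHOP (the product of Ddit3), genes that limit growth signalling. The unfolded protein response shares the kinase PERK with this pathway and adds IRE1, which splices the Xbp1 message, and ATF6, and both raise chaperones of the endoplasmic reticulum (ER) such as BiP, the product of Hspa5. The liver, which secretes most plasma proteins, carries a high load of ER folding.

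ATF4, CHOP and ATF6 are known to act through short elements near the starts of their target genes. RefSeq windows (GRCm38.p6) of 250 bases before to 50 bases after the start were at hand for 9 of the 10 members. Eif4ebp3 had no window and was not searched. Both strands were searched for the C/EBP-ATF composite element (TGATGNAAN), the cyclic AMP response element (TGACGTCA), the unfolded protein response element (TGACGTGG) and the ER stress response element, ERSE, a CCAAT box and a CCACG box at a fixed spacing. The composite element was found in Atf3, Trib3, Chac1 and Asns, against 4.04% of 27025 promoter windows, and of these genes Trib3 was the one called in STZ against Con. The ERSE was found in Hspa5, against 0.13% of the windows. The cyclic AMP response element (1.88% of the windows) and the unfolded protein response element (0.607%) were found in none of the 9 members searched. These windows are printed with the match in capitals, together with that of Sesn2, which rose in the STZ mice and held none of the 4 motifs. A match is a description of letters and was not tied to binding by any measurement here.
Trib3 (chr2:152344011-152344310, minus strand): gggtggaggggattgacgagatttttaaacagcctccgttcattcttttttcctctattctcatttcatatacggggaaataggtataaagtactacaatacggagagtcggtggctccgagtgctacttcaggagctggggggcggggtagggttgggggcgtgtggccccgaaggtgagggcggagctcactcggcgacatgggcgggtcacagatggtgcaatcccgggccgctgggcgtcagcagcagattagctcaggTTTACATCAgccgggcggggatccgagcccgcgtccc
Atf3 (chr1:191183284-191183583, minus strand): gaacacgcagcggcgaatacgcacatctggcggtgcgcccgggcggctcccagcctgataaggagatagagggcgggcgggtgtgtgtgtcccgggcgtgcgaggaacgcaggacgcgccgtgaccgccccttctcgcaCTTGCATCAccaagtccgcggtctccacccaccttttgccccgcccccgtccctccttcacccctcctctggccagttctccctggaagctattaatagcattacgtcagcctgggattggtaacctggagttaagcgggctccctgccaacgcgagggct
Chac1 (chr2:119350992-119351291, plus strand): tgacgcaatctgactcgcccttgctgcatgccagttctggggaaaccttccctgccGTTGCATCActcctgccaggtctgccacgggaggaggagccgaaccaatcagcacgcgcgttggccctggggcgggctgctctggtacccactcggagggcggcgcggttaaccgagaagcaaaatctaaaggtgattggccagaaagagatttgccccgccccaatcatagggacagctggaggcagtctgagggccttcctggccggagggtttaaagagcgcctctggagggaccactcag
Asns (chr6:7693160-7693459, minus strand): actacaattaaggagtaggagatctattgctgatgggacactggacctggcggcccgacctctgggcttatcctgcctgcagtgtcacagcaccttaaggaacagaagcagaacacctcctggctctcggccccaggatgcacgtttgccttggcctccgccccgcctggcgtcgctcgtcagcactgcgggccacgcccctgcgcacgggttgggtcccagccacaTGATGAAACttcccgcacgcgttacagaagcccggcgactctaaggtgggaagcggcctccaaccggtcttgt
Hspa5 (chr2:34771840-34772139, plus strand): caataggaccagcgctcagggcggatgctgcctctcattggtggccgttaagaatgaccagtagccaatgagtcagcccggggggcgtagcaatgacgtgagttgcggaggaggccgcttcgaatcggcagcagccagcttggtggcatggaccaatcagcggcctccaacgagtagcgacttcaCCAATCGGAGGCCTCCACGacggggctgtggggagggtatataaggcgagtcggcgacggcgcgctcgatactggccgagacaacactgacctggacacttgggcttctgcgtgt
Sesn2 (chr4:132510407-132510706, minus strand): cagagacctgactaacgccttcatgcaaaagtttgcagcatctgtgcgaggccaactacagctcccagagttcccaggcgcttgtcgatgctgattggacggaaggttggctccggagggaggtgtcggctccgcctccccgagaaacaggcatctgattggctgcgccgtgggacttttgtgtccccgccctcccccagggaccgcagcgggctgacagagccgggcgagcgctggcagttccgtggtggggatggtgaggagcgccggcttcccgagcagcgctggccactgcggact

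The libraries held an estimated 11100000 to 12400000 reads each, as read from the smallest steps of the RPKM values, and 7 hepatocyte markers summed to 42978 to 63699 RPKM across the groups. A pair of libraries stood apart and touch the results. The library of STZ+AOS mouse 3 carried pancreatic acinar transcripts: 10 of 12 acinar markers were at 2.44 to 36.5 RPKM there and at no more than 1.34 RPKM in the other 17 libraries. Their summed level was 97.3 RPKM against 0.04 to 2.15 RPKM. Of the remaining markers, Amy2b was at 0 in that library and Cela1 was found in every group. This library also had the highest Atf3, Sesn2 and Atf4 of all 18. The library of STZ mouse 3 was at a distance of 53.7 from the Con mean (root of the summed squared log2 differences). The other STZ mice were at 90.6 and 89.1, and the transplanted mice at 42.8 to 68.8. STZ mouse 3 also held 98 RPKM of Fos and 155 RPKM of Egr1. Fos was also at 84.4 RPKM in Con-FMT mouse 2, and at 7.54 RPKM or less in the other 16 libraries. Some counts of calls, and some of the values named with these libraries, are given with and without them. Apart from the chaperones, the counts for lists of genes in STZ against Con include STZ mouse 3. Their part in the other values was not tested.

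By level, the ER genes came first. The median over the 18 libraries was 249.9 RPKM for Hspa5, 80.9 RPKM for Xbp1, 73.8 RPKM for Atf4 and 42.9 RPKM for Eif4ebp3. It was 8.03 RPKM for Trib3, 6.55 RPKM for Ddit3 and 3.15 RPKM for Sesn2. Atf3 (1.16 RPKM), Chac1 (0.93 RPKM) and Asns (0.885 RPKM) were near the filter, and an estimated 3.6 to 136.5 reads per library lay behind Chac1 and Asns. Xbp1 and Atf4 varied least, with a highest library 1.93 and 1.77 times the lowest. Asns, Atf3 and Trib3 varied most, by 24.9, 21.8 and 20.4 times, and for Atf3 the highest value was that of STZ+AOS mouse 3.

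**Figure D1:**
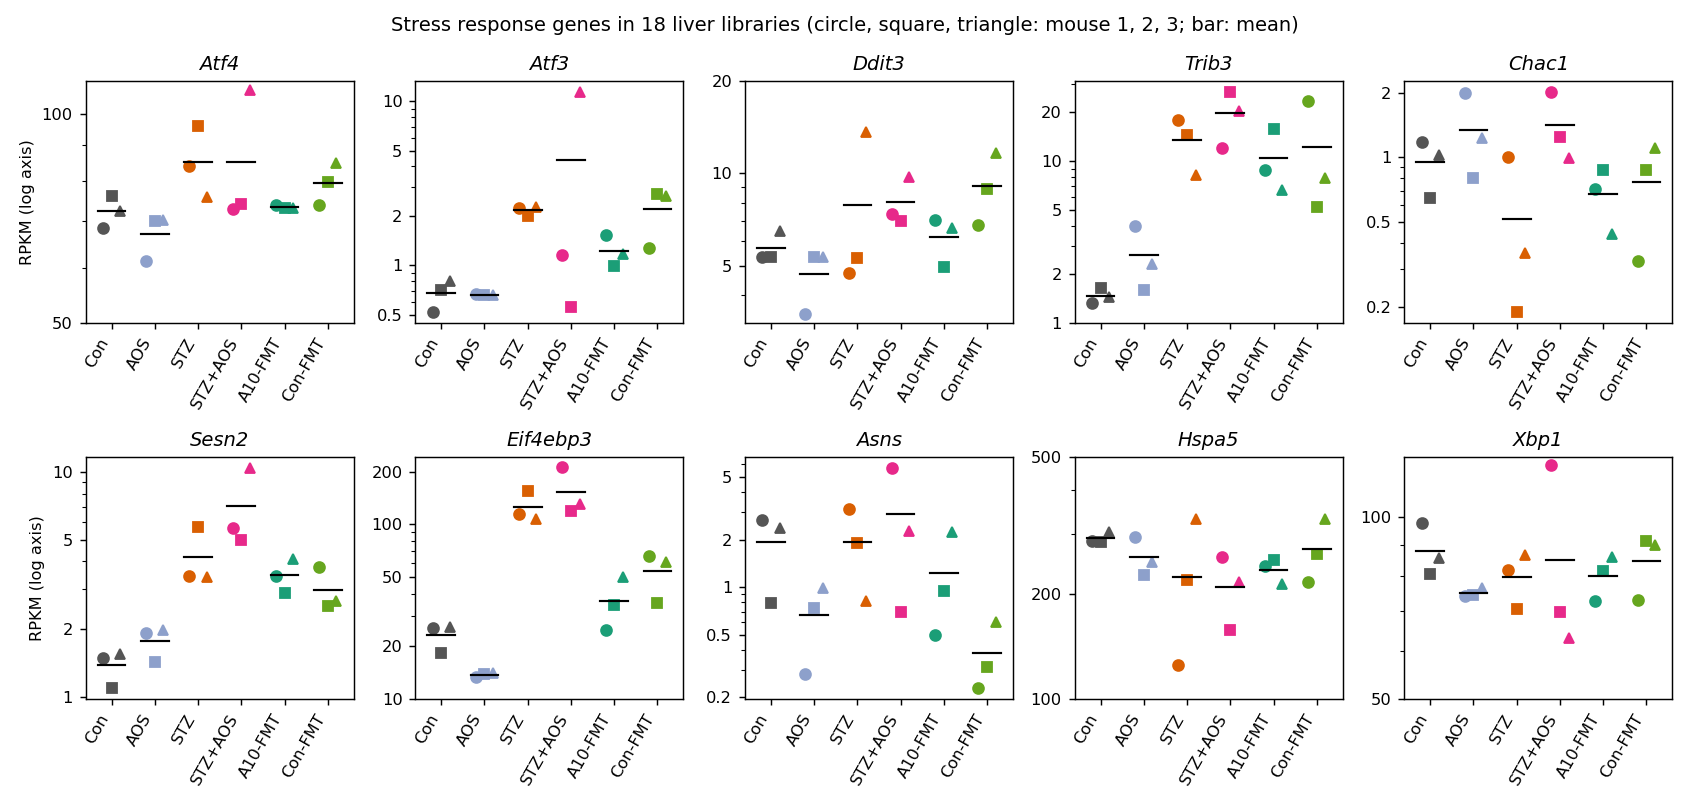
RPKM on a log axis of the 10 genes in 18 liver libraries. Each point is 1 mouse, with 3 mice per group, and bars are group means. Trib3, Sesn2 and Eif4ebp3 lay higher in all 6 mice of the STZ and STZ+AOS groups than in the 6 mice of the Con and AOS groups, while Atf4 and Xbp1 stayed within a narrow range.

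The comparison of STZ with Con asks which of these genes differed in the livers of diabetic mice. Trib3, Sesn2 and Eif4ebp3 were higher in STZ, and no member was lower past the threshold. Thus 3 of 10 members were called at a Benjamini-Hochberg adjusted p under 0.05 (limma, on log2 of RPKM + 1, all 18 libraries in the fit), against a background of 36.1% of all genes tested, 30.8% higher and 5.25% lower. The share of members called was therefore near that of all genes. The median log2 change was 0.25 over the members and 0.21 over all genes. That shift of all genes was −0.01 when each library was scaled by its median ratio, where 1318 genes were higher and 1304 lower in place of 3336 and 568. The same 3 members were called under that scaling. In liver as a whole, fewer cells of a type and less RNA per cell cannot be told apart.

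Trib3 encodes a pseudokinase that binds AKT and is induced through ATF4 and CHOP (chromosome 2, 152337422 to 152344032, minus strand, GRCm38). It was at 1.32, 1.65 and 1.44 RPKM in Con (mean 1.47 ± 0.167, SD, n = 3) and at 17.9, 14.6 and 8.22 RPKM in STZ (13.6 ± 4.94, n = 3). The groups did not overlap, and the STZ mouse nearest to Con was mouse 3. The log2 change was 2.50 (SE 0.44, limma adjusted p = 0.000863). It was 2.80 without STZ mouse 3.

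Sesn2 encodes sestrin 2, a leucine sensor that restrains mTORC1 (chromosome 4, 132492032 to 132510501, minus strand). Its values were 1.49, 1.10 and 1.55 RPKM in Con and 3.45, 5.68 and 3.41 RPKM in STZ. Every STZ mouse lay above every Con mouse. The log2 change was 1.10 (SE 0.22, limma adjusted p = 0.00175). Gm12981 overlaps Sesn2 on the same strand, so that their reads may be shared.

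Eif4ebp3 encodes a binding protein of the cap-binding factor eIF4E and is among the translation inhibitors of the pathway. It was at 25.3, 18.4 and 25.8 RPKM in Con and at 114.3, 155.2 and 107.4 RPKM in STZ, with a wide gap between the groups. The log2 change was 2.39 (SE 0.27, limma adjusted p = 5.01e-05). An annotated transcript, AC115631.1, overlaps this gene on the same strand, so that the value may hold reads of both.

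None of the transcription factors Atf4, Atf3 and Ddit3 was called. Atf4, the hub of the pathway, was at 68.4, 76.2 and 72.4 RPKM in Con and at 84.1, 95.9 and 75.9 RPKM in STZ, with overlapping groups and a log2 difference of 0.23 (SE 0.13, limma adjusted p = 0.189). This difference had the opposite sign, −0.04, under median-ratio scaling. Its control lies largely in translation, which RNA levels do not show. Atf3, a repressor of the same family, was at 0.52, 0.71 and 0.80 RPKM in Con and at 2.25, 2 and 2.26 RPKM in STZ. The groups did not overlap. The log2 difference was 0.92 (SE 0.50, limma adjusted p = 0.156), and the adjusted p was 0.000946 without STZ+AOS mouse 3, whose 11.4 RPKM enters the spread shared by all groups, and 0.00396 with the Con and STZ libraries alone. Atf3 (chromosome 1, 191170296 to 191218039, minus strand) is overlapped on the other strand by Gm24748.

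Ddit3, which encodes CHOP, was at 5.32, 5.33 and 6.48 RPKM in Con and at 4.72, 5.30 and 13.6 RPKM in STZ. The high value belonged to STZ mouse 3, and the log2 difference was 0.27 with it (limma adjusted p = 0.471) and −0.16 without it (adjusted p = 0.561). Ddit3 (chromosome 10, 127290774 to 127296288, plus strand) shares its locus with Mars and Gm4189 on the other strand. Whether reads were counted by strand is not stated in the sources used here, so that reads of these genes cannot be told apart.

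Neither Asns nor Chac1 passed the test. Asns, which encodes asparagine synthetase (chromosome 6, 7675169 to 7693254, minus strand), was at 2.65, 0.79 and 2.37 RPKM in Con and at 3.11, 1.91 and 0.82 RPKM in STZ. The log2 difference was −0.01 with a 95% interval from −0.93 to 0.92. Chac1, which encodes an enzyme that degrades glutathione (chromosome 2, 119351229 to 119354381, plus strand), was at 1.18, 0.65 and 1.03 RPKM in Con and at 1.00, 0.19 and 0.36 RPKM in STZ. Its log2 difference was −0.39 (95% interval −0.89 to 0.11). The groups overlapped for both genes, and neither difference exceeded the spread between mice.

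For the ER branch, Hspa5 (chromosome 2, 34771970 to 34777547, plus strand) was at 285.2, 284.0 and 304.0 RPKM in Con and at 125.3, 219.8 and 329.7 RPKM in STZ. The first 2 STZ mice lay below all Con mice and mouse 3 lay above them. The log2 difference was −0.48 (SE 0.27, limma adjusted p = 0.170), and −0.81 without STZ mouse 3 (adjusted p = 0.0133). Xbp1, the target of IRE1 (chromosome 11, 5520659 to 5525893, plus strand), ranged from 80.5 to 97.8 RPKM in Con and from 70.4 to 86.7 RPKM in STZ, with a log2 difference of −0.14 (limma adjusted p = 0.569). The table gives 1 value per gene, so that spliced and unspliced Xbp1 were not measured.

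**Figure D2:**
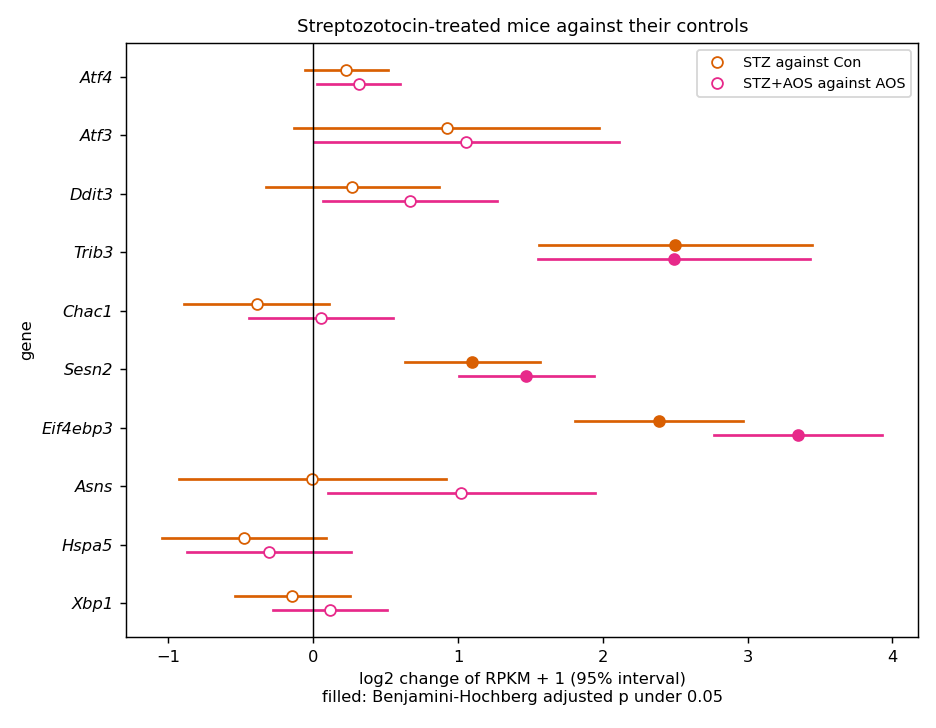
Log2 change of RPKM + 1 (x axis) with 95% intervals for the 10 genes (y axis), in STZ against Con and in STZ+AOS against AOS, 3 mice per group. Filled points had an adjusted p under 0.05. Trib3, Sesn2 and Eif4ebp3 were called in both comparisons, at 2.50, 1.10 and 2.39 and at 2.49, 1.47 and 3.35.

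STZ+AOS against AOS gives the same comparison among mice that all received the oligosaccharide, with no library in common with the first. Again Trib3, Sesn2 and Eif4ebp3 were higher and none of the 10 was lower, against 37.9% of all genes called, 31.8% higher and 6.11% lower. The median log2 change was 0.85 over the members and 0.21 over all genes. Without STZ+AOS mouse 3, the members' median was 0.42 and the same 3 genes were called. Without STZ+AOS mouse 2, 6 were called, the added genes being Atf4, Atf3 and Asns. The share of all genes called in that fit is not given here. It kept STZ+AOS mouse 3, which had the highest Atf4 and Atf3 of all libraries, and mouse 1, which had the highest Asns.

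Trib3 was at 4, 1.61 and 2.33 RPKM in AOS and at 11.98, 26.9 and 20.3 RPKM in STZ+AOS. Its log2 change was 2.49 (SE 0.44, limma adjusted p = 0.000944) and 2.44 without STZ+AOS mouse 3. Sesn2 was at 1.93, 1.43 and 1.98 RPKM in AOS and at 5.62, 5 and 10.4 RPKM in STZ+AOS, the last being the library with acinar transcripts. The groups did not overlap for either gene. For Sesn2 the log2 change was 1.47 (SE 0.22, limma adjusted p = 0.000343), and 1.19 without that library (adjusted p = 0.000827). Eif4ebp3 was at 13.4, 13.8 and 14.0 RPKM in AOS and at 213.1, 119.0 and 131.3 RPKM in STZ+AOS. At 3.35 (SE 0.27, limma adjusted p = 3.05e-06) this was the largest log2 change of a member in the 10 comparisons, and it was 3.44 without STZ+AOS mouse 3.

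Atf4, Atf3, Ddit3 and Asns had log2 differences of 0.31, 1.06, 0.67 and 1.02 in this comparison, with limma adjusted p of 0.0761, 0.103, 0.0727 and 0.0733. None of them passed the threshold. Atf3 was at 1.15, 0.56 and 11.4 RPKM in STZ+AOS against 0.66 to 0.67 RPKM in AOS, and without STZ+AOS mouse 3 its log2 difference was 0.14. Atf4 was at 72.9, 74.1 and 108.3 RPKM in STZ+AOS, and its difference was 0.13 without that mouse. Asns ranged from 0.69 to 5.72 RPKM within STZ+AOS. Chac1, Hspa5 and Xbp1 differed by 0.06, −0.30 and 0.12 on the log2 scale, with limma adjusted p from 0.381 to 0.869.

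Whether the oligosaccharide altered the difference made by streptozotocin was tested as an interaction. No member passed, against 0% of all genes. Eif4ebp3 had the smallest p among the members, with a difference of the log2 changes of 0.97 (SE 0.39, limma adjusted p = 0.856), and 584 of all genes had an unadjusted p under 0.05. AOS against Con gave no member, against 0.00924% of all genes (781 at an unadjusted p under 0.05). Eif4ebp3 was lower in all 3 AOS mice than in any Con mouse, at a log2 difference of −0.70 that did not pass (limma adjusted p = 0.647). STZ+AOS against STZ gave no member, against 0% of all genes (657 at an unadjusted p under 0.05). There Chac1 differed by 0.69 and Sesn2 by 0.60, each with a limma adjusted p = 0.806.

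The wider pathway was read from lists of genes. Of 25 other ATF4 and CHOP targets that passed the filter, 11 rose and 2 fell in STZ against Con, where 30.8% of all genes were higher and 5.25% lower, with a median log2 change of 0.45. In STZ+AOS against AOS, 13 rose and 2 fell, where 31.8% of all genes were higher and 6.11% lower, with a median of 0.40. The median over all genes was 0.21 in both comparisons. Vldlr, the receptor of very low density lipoprotein, rose by 1.67, Slc38a2, an amino acid transporter, by 1.66, Xpot, the tRNA exporter, by 0.81 and Cth, which makes cysteine from cystathionine, by 1.56 on the log2 scale in STZ (limma adjusted p from 4.5e-05 to 0.0005). Cth was at 140.7 to 201.1 RPKM in Con and at 449.1 to 625.6 RPKM in STZ. Of the 2 targets that fell, Mthfd2 reached 1 RPKM in the 3 Con libraries alone and so passed the filter only through the group where it was high. In STZ+AOS against AOS, Cth rose by 1.66, Slc38a2 by 1.29, Vldlr by 1.08 and Gdf15, a secreted stress factor, by 2.26. Without STZ+AOS mouse 3, Gdf15 was at 1.72 (limma adjusted p = 0.00295), and 7 targets rose and 1 fell. Median-ratio scaling left 9 and 2 in that comparison, and 5 and 2 in STZ against Con.

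Of 17 eIF2 kinases and eIF2 regulators, 5 rose and none fell in STZ, and 11 rose and none fell in STZ+AOS against AOS. Of all genes, 30.8% were higher and 5.25% lower in STZ, and 31.8% and 6.11% in STZ+AOS against AOS. The medians of the 17 genes, 0.22 and 0.33, lay close to those of all genes, 0.21 in both comparisons. Under median-ratio scaling 1 and 3 of them rose, and 8 rose in STZ+AOS against AOS without STZ+AOS mouse 3. Ppp1r15a, which encodes GADD34, the regulatory subunit that removes the phosphate from eIF2, rose by 0.76 and 0.90 on the log2 scale. Eif2s1, the phosphorylated subunit itself, rose by 0.28 and 0.50. Of 20 cytosolic aminoacyl-tRNA synthetases, 5 rose and 2 fell in STZ, and 8 rose and 2 fell in STZ+AOS against AOS (6 and 2 without STZ+AOS mouse 3). Kars rose by 0.41 and Hars by 0.41 in STZ, while Tars fell by 0.85. Under median-ratio scaling no synthetase rose in STZ and 3 fell.

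Among the chaperones of the ER, the calls were in the other direction. Of 16 chaperones and folding enzymes besides Hspa5, 8 fell, none rose and 8 were not called in STZ against Con, where 5.25% of all genes were lower. The median log2 change was −0.58, and that of all genes was 0.21. Without STZ mouse 3, 12 of the 16 fell. Under median-ratio scaling 12 fell, with a median of −0.85. That scaling also lowered the median of all genes and raised the number of all genes that fell, as given above for this comparison. Sdf2l1, a partner of BiP, fell by 2.31 (limma adjusted p = 0.000495), from 38.9, 39.7 and 41.5 RPKM in Con to 3.54, 7.52 and 13.7 RPKM in STZ. Pdia3 and Pdia4, disulfide isomerases, fell by 0.78 and 0.58, and Calr, the lectin chaperone calreticulin, fell by 0.85. By library the median over the 16 genes was −0.98 and −0.57 in STZ mice 1 and 2 and −0.11 in STZ mouse 3, relative to Con.

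In STZ+AOS against AOS, 2 of the 16 chaperones fell, Sdf2l1 by 1.91 and Pdia3 by 0.57, and none rose, where 6.11% of all genes were lower. By library their median relative to Con was −0.289, −0.506 and −0.632 in STZ+AOS mice 1, 2 and 3, lowest in the library with acinar transcripts. The list's median was −0.30 and that of all genes was 0.21. When STZ mouse 3 was left out of the shared spread, 6 fell, and the share of all genes in that fit is not given here. Hyou1, a chaperone that works beside BiP, followed Hspa5 most closely of all genes (Pearson r = 0.974 over 18 libraries, a description, since libraries of a group share their treatment). It was at 41.1 to 44.5 RPKM in Con and at 14.6, 24.9 and 43.7 RPKM in STZ, mouse 3 again lying with Con. Its log2 difference was −0.75 (limma adjusted p = 0.0598), and −1.14 without STZ mouse 3 (adjusted p = 0.00313).

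**Figure D3:**
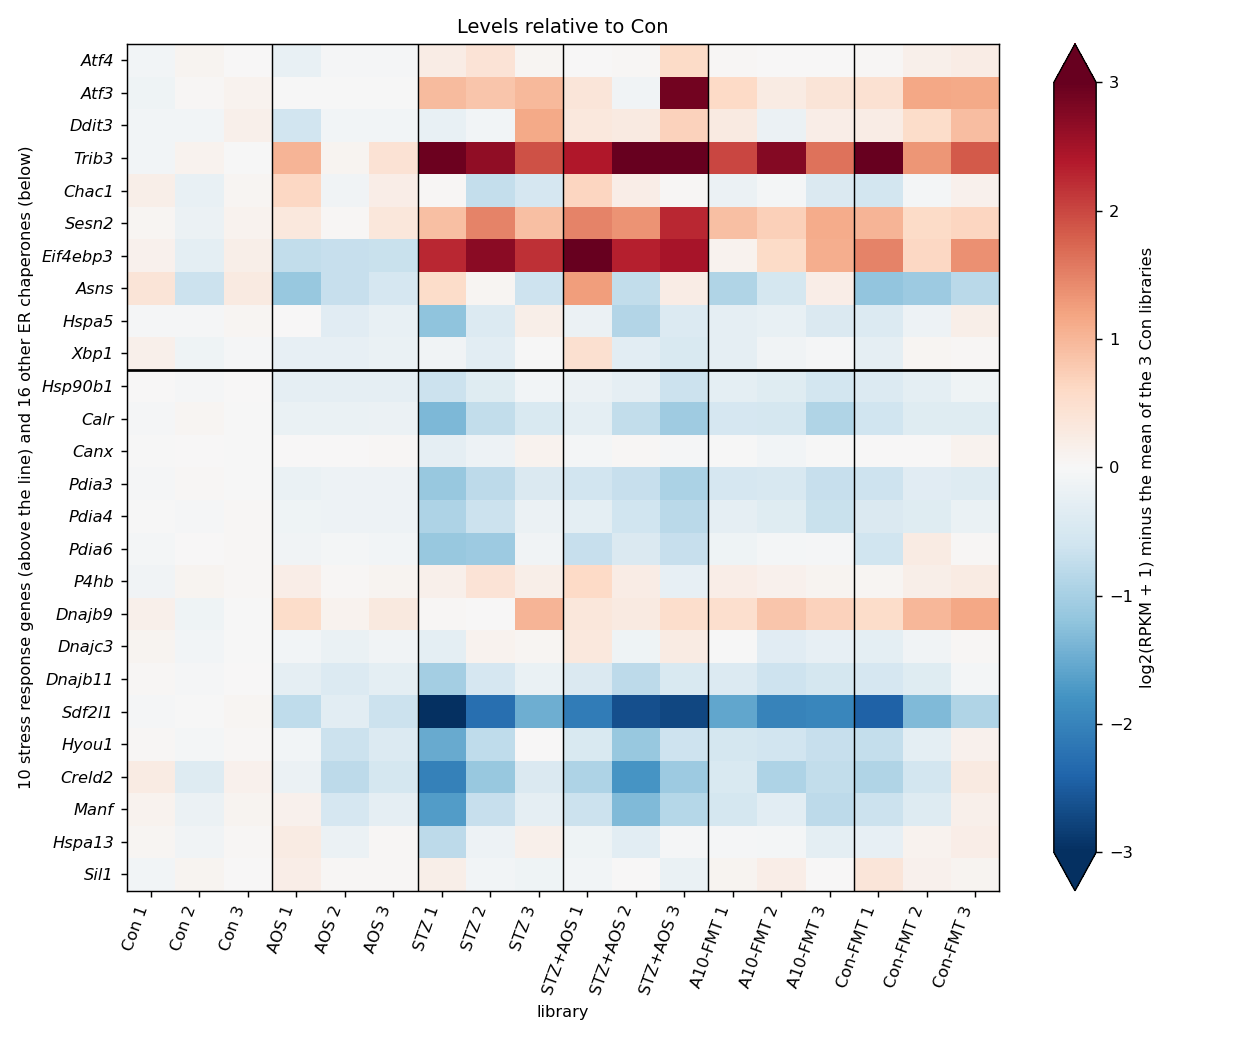
Log2(RPKM + 1) minus the mean of the 3 Con libraries, as colour, for the 10 genes (rows above the line) and 16 other ER chaperones (below) in 18 libraries (columns). Trib3, Sesn2 and Eif4ebp3 were above Con in the STZ and STZ+AOS libraries, Sdf2l1 was below Con in all of them, and STZ mouse 3 had a chaperone median of −0.11.

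Of 22 genes of ER entry and of ER-associated degradation, 2 rose and 7 fell in STZ, and 3 rose and 5 fell in STZ+AOS against AOS (2 and 3 without STZ+AOS mouse 3). Of all genes, 30.8% were higher and 5.25% lower in STZ, and 31.8% and 6.11% in STZ+AOS against AOS. Derl3, a channel component, fell by 1.04 and Sec61b, a translocon subunit, by 0.58 in STZ. Derl3 lay near the filter, at 0.73 to 2.38 RPKM in Con and 0.12 to 0.40 RPKM in STZ. It reached 1 RPKM in no STZ or STZ+AOS library and so passed the filter through other groups, where it was higher. Herpud1, a degradation factor, rose by 1.71 in STZ, from 68.8 to 79.5 RPKM in Con to 171.5 to 310.2 RPKM in STZ. It was at 165.6, 180.4 and 764.8 RPKM in STZ+AOS, and its log2 change there was 1.16 (limma adjusted p = 0.0390) and 0.45 without STZ+AOS mouse 3 (adjusted p = 0.157). Of 10 sensors and processing factors, 3 rose in each comparison and none fell, a share near that of all genes that were higher. Crebrf rose by 1.00 and 0.93 and Atf6, the ER-bound factor, by 0.69 and 0.73. Without STZ+AOS mouse 3, Atf6 was at 0.45 in STZ+AOS against AOS (limma adjusted p = 0.0516). Of 15 immediate early genes, 8 rose in each comparison (6 in STZ+AOS against AOS without STZ+AOS mouse 3), Ier3 by 1.61 and 1.64 and Junb by 2.15 and 1.74. Ier3 was at 0.26 to 0.78 RPKM in the Con and AOS libraries. It therefore passed the filter only through mice given streptozotocin, where it was high. The summed level of the immediate early genes was 115 to 146 RPKM in Con and 289, 297 and 655 RPKM in STZ mice 1, 2 and 3. Its part in the values of Atf3 and Ddit3 was not tested.

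The transplanted mice address whether these genes moved back from their levels in STZ. In A10-FMT against STZ, 1 of 10 members was called, against 0.49% of all genes: Eif4ebp3, which was lower. It was at 24.9, 34.4 and 50.2 RPKM in A10-FMT and at 107.4 to 155.2 RPKM in STZ, without overlap. The log2 change was −1.79 (SE 0.27, limma adjusted p = 0.0209). The call was lost without STZ mouse 2 (adjusted p = 0.145), without A10-FMT mouse 1 (0.0959), without A10-FMT mouse 2 (0.0860) and with the libraries of both groups alone (0.189), while the log2 change stayed between −1.55 and −2.04 when single libraries were left out. In Con-FMT against STZ no member was called, against 0.166% of all genes (2030 at an unadjusted p under 0.05).

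In Con-FMT the 3 mice had 66.01, 35.6 and 60.9 RPKM of Eif4ebp3, all below the STZ mice. Its log2 difference was −1.23 (limma adjusted p = 0.0704), and the adjusted p was 0.0153 without STZ mouse 3 and 0.0377 without STZ+AOS mouse 3. Asns was at 0.23, 0.31 and 0.60 RPKM in Con-FMT, below all STZ mice, with a log2 difference of −1.03 (limma adjusted p = 0.221). Trib3 and Sesn2 were not called against STZ. Trib3 was at 8.86, 15.8 and 6.64 RPKM in A10-FMT and at 23.5, 5.22 and 7.84 RPKM in Con-FMT. Sesn2 was at 3.43, 2.88 and 4.09 RPKM in A10-FMT and at 3.77, 2.53 and 2.68 RPKM in Con-FMT. Both genes overlapped with STZ in both groups, and their log2 differences from STZ lay between −0.37 and −0.19. The 95% interval for Trib3 ran from −1.31 to 0.57 in A10-FMT, so that a sizeable fall was neither shown nor excluded. Without STZ mouse 3 the differences of Trib3 were −0.668 in A10-FMT and −0.637 in Con-FMT. Those of Sesn2 were then −0.296 and −0.462, and none of these passed the threshold.

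Between the transplants no member differed past the threshold, against 0% of all genes (245 at an unadjusted p under 0.05, limma). Eif4ebp3 had the smallest p among the members, with a log2 difference of A10-FMT from Con-FMT of −0.56 (95% interval −1.14 to 0.02, limma adjusted p = 0.9995). The fall of Eif4ebp3 against STZ was therefore not shown to differ between donors.

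Against Con, Trib3 and Sesn2 were called higher in both transplants, and the Sesn2 calls were lost under several alternatives. In A10-FMT, Trib3 (log2 change 2.13, limma adjusted p = 0.00626) and Sesn2 (0.91, adjusted p = 0.0135) were higher than in Con, 2 of 10 members against 17.1% of all genes. Sesn2 was not called without A10-FMT mouse 3 (adjusted p = 0.0642). Eif4ebp3 was at 0.59 (adjusted p = 0.143) and its lowest A10-FMT mouse lay within the range of Con. In Con-FMT, Trib3 (2.16, limma adjusted p = 0.00640), Sesn2 (0.74, adjusted p = 0.0319) and Eif4ebp3 (1.16, adjusted p = 0.0123) were higher, 3 of 10 against 18.1% of all genes. The call of Sesn2 was lost without any 1 of Con mice 1, 2 and 3 and Con-FMT mice 1 and 3 (adjusted p from 0.0580 to 0.153), under median-ratio scaling (0.1003), under quantile normalization (0.0682) and with no filter (0.0606), and that of Eif4ebp3 without Con-FMT mouse 1 (0.0738) and under quantile normalization (0.0732). Atf3 was called without STZ+AOS mouse 3 (0.00328) and Ddit3 without STZ mouse 3 (0.0421). Asns was lower in all 3 Con-FMT mice than in Con, at a log2 difference of −1.03 that did not pass (limma adjusted p = 0.106). The comparisons with STZ and with Con share the transplanted libraries.

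**Figure D4:**
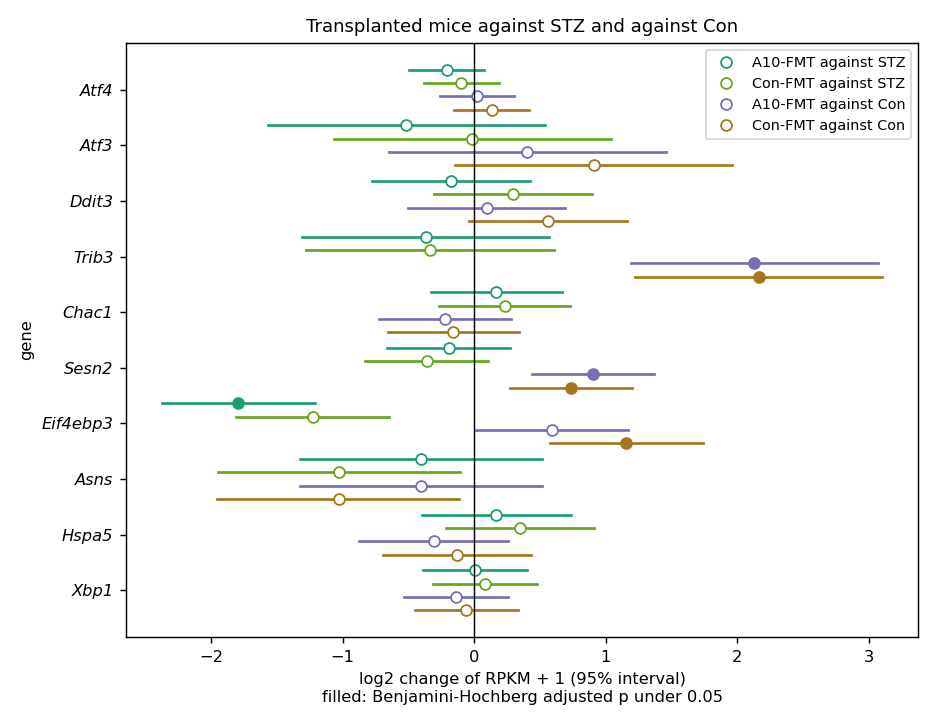
Log2 change of RPKM + 1 (x axis) with 95% intervals for the 10 genes (y axis) in the A10-FMT and Con-FMT mice against STZ and against Con, 3 mice per group. Filled points had an adjusted p under 0.05. Eif4ebp3 was at −1.79 and −1.23 against STZ, while Trib3 was at 2.13 and 2.16 against Con.

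Among the chaperones in the transplanted mice, the median relative to Con ran from −0.54 to −0.28 in A10-FMT and from −0.47 to 0.05 in Con-FMT. All of these mice lay above STZ mice 1 and 2, at −0.982 and −0.575. STZ mouse 3, at −0.114, lay above the A10-FMT mice and within the range of Con-FMT, so that the overlap with STZ rested on that library. Against STZ, none of the 16 passed the test in either transplant. Of all genes, 0.49% were called in A10-FMT and 0.166% in Con-FMT. The list's median log2 difference from STZ was 0.151 in A10-FMT and 0.307 in Con-FMT. That of all genes was −0.054 and −0.031. Against Con, 4 fell in A10-FMT and 2 fell and 1 rose in Con-FMT. Of the 10822 genes tested, 1589 were higher and 259 lower in A10-FMT against Con. In Con-FMT against Con, 1768 were higher and 193 lower. Sdf2l1 was at 13.03, 9.30 and 9.64 RPKM in A10-FMT and at 6.57, 15.5 and 20.8 RPKM in Con-FMT, all below the Con mice. It fell by 1.83 and 1.55 on the log2 scale against Con (limma adjusted p = 0.00573 and 0.0133). No gene of the pathway lists was called in AOS against Con, STZ+AOS against STZ or either transplant against STZ. At most 0.49% of all genes were called in these comparisons. Of the other ATF4 and CHOP targets, 9 rose and 1 fell in A10-FMT against Con and 8 rose and 1 fell in Con-FMT against Con, where 17.1% and 18.1% of all genes were called.

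Kupffer cell, macrophage and stellate cell markers were called higher in STZ at a share no larger than the 30.8% of all genes. The median log2 change was 0.546 for the Kupffer cell and macrophage markers and 0.162 for the stellate cell markers. That of all genes was 0.213. Of 9 Kupffer cell and macrophage markers, 2 rose in STZ, with a summed level of 106 to 158 RPKM in Con and 153 to 313 RPKM in STZ. Of 7 stellate cell markers, 2 rose in STZ, with 78.2 to 89.0 RPKM in Con and 115 to 140 RPKM in STZ. Summed erythroid markers ranged from 280.0 to 9168 RPKM over the libraries and were highest in Con-FMT. Their part in the values of the 10 genes was not tested.

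Over the 18 libraries, the members that rose with streptozotocin varied together. Pearson's r was 0.83 between Trib3 and Sesn2, 0.83 between Sesn2 and Eif4ebp3 and 0.78 between Trib3 and Eif4ebp3. After the group means were removed these values were 0.22, 0.34 and 0.04. Atf4 and Atf3 had an r of 0.86, and 0.81 within groups, where STZ+AOS mouse 3 had the highest value of both. The genes most like each member were Abcb4 for Trib3 (r = 0.956), Wasl for Sesn2 (0.972) and Epb41 and Lepr for Eif4ebp3 (0.954 and 0.95). Lepr, the leptin receptor, was at 0.14, 0.14 and 0.17 RPKM in Con and at 46.3, 42.1 and 21.7 RPKM in STZ, and at 1.14 to 9.29 RPKM in the transplanted mice. Like the mean standardized profile of the 10 genes were Lrrc8a (0.936), Safb (0.914), Farsa (0.905), Champ1 and Zfp664 (0.897 each). These are descriptions over libraries that share treatments.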

How the data were processed

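RNA from 18 livers was sequenced, and the authors deposited 1 table of RPKM values, in which depth and gene length are already divided out. Bowtie 0.12.2 and the mouse build mm10 are named in the submitters' processing notes, whereas the study's methods name SOAPaligner, so that the aligner of the table is unsure. Raw counts were not used here, and the count-based test of the study was therefore not run. Groups came from the sample labels, with 3 mice each, and p-values measure the spread between these mice. Values were tested as log2(RPKM + 1) with limma 3.58.1 in R 4.3.3, with 1 mean per group and a mean-variance trend, over 10822 genes at 1 RPKM or more in at least 3 of the 18 libraries. Folds on this scale understate changes of low genes. Benjamini-Hochberg adjustment ran over all genes within each of 10 comparisons, at a threshold of 0.05, and the fit was tested on simulated data. All 10 members are named, with up to 4 called genes of smallest adjusted p per list. The members and lists were chosen with earlier results of these data known. Gene positions are from the GENCODE annotation of GRCm38. Depth was estimated from the RPKM step that 1 read makes in 39 to 67 short genes per library. Alternatives covered scaling, pseudocount, filter, variance model, samples, replicate number, single libraries and threshold. The symbols of 26 rows had been turned into dates and name no gene of a list.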

Additional observations from a re-analysis of the deposited data

How the results depend on the processing

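Trib3, Sesn2 and Eif4ebp3 were called in STZ against Con and in STZ+AOS against AOS under every scaling, filter, pseudocount and variance model run. Of the settings that changed a number of members called by over 1.5 times, A10-FMT against STZ (1 member) gave 0 with the compared groups alone and at an adjusted p of 0.001 with a 2-fold change. The strict threshold also gave 0 in A10-FMT against Con (2 members) and 0 in Con-FMT against Con (3 members), where quantile normalization gave 1. With single libraries left out, the number called was 3 to 4 in STZ against Con, 3 to 6 in STZ+AOS against AOS, 0 to 1 in A10-FMT against STZ, 0 to 2 in Con-FMT against STZ, 1 to 2 in A10-FMT against Con and 1 to 4 in Con-FMT against Con. Over all genes, the compared groups alone gave 1 call in place of 53 in A10-FMT against STZ, 0 in place of 18 in Con-FMT against STZ, 2483 in place of 4102 in STZ+AOS against AOS and 3355 in place of 1848 in A10-FMT against Con. Median-ratio scaling gave 1323 higher and 1325 lower genes in STZ+AOS against AOS (3441 and 661 without it), 553 and 476 in A10-FMT against Con (1589 and 259) and 383 and 333 in Con-FMT against Con (1768 and 193). The added calls in Con-FMT against STZ were Ddit3 and Eif4ebp3 without STZ mouse 3.

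Small differences changed sign, none of them called. In STZ against Con, Atf4 was at −0.037 with median-ratio scaling and −0.063 with quantile normalization, and with single libraries left out Asns ranged from −0.329 to 0.303 and Ddit3 from −0.156 to 0.52. In STZ+AOS against AOS, median-ratio scaling gave −0.081 for Chac1 and −0.127 for Xbp1, quantile normalization gave −0.067 and −0.041, and with single libraries left out they ranged from −0.118 to 0.248 and from −0.172 to 0.297. The cause was not tested.

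No pairing of mice by replicate number is stated, and the main fit used none. Same-numbered libraries had a median correlation of 0.03 between their deviations (−0.25 to 0.47 over 45 pairs, 16 of them over 0.1). Differently numbered libraries had a median of −0.01 (−0.53 to 0.45 over 90 pairs, 16 of them over 0.1). A weak sharing by number was therefore neither shown nor excluded. With the replicate block, 3 members were called in STZ against Con and 4 in STZ+AOS against AOS, the added gene being Ddit3 (adjusted p = 0.0275), and 3808 and 4029 genes in all. It changed no other member's call. Depth limits Asns, Chac1 and Atf3, which rest on few reads.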
